A study of Arabidopsis thaliana with 2 samples.

Results

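Glucosinolates are sulfur-containing defense metabolites that Arabidopsis makes from methionine or tryptophan. The pathway runs through both soluble enzymes and cytochrome P450 monooxygenases (P450s), heme enzymes held in the endoplasmic reticulum (ER) membrane by a hydrophobic N-terminal segment. Here 10 genes of the pathway were followed on membrane-bound polysomes (MBPs), out of 25224 genes with exon values. They were taken by gene ID from a named list that was drawn up with earlier results of these data known, and the rule itself uses no measured value. Of these, 7 encode P450s (CYP79F1, CYP79F2, CYP79B2, CYP79B3, CYP83A1, CYP83B1 and CYP81F2) and 3 encode other enzymes (MAM1, SUR1 and FMO GS-OX1). All 10 passed the filter on low values, a mean exon RPM of at least 1, as did 16879 genes in all.

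MBPs are the translating ribosomes that sediment with microsomal membranes. They were isolated from wild-type seedlings at 13 days of age, labelled WT with no further allele or treatment. The MBP ribo-seq library held the short fragments left inside ribosomes after RNase I digestion, and the MBP mRNA-seq library held RNA of the MBP fraction. There was 1 library per assay, so each difference below describes these 2 libraries, no test across genes was made, and every interval covers counting error only.

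In the pathway, members of the CYP79 family turn amino acids into aldoximes and members of the CYP83 family oxidize the aldoximes further. CYP79F1 and CYP79F2 act on chain-elongated methionine, and CYP83A1 takes up their products. CYP79B2 and CYP79B3 act on tryptophan, and CYP83B1 takes up the indole aldoxime. CYP81F2 hydroxylates the ring of finished indole glucosinolates. Among the other members, MAM1 condenses the first rounds of methionine chain elongation in the plastid, SUR1 is the C-S lyase that follows the CYP83 step, and FMO GS-OX1 oxidizes the sulfur of methionine-derived side chains.

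One feature that sets the P450 members apart from the others is their heme-binding site, which is shown here. Both kinds of member were grouped by the named list and not by this site. A script searched every translated coding sequence for the PROSITE cytochrome P450 cysteine heme-iron ligand signature. It was found once in each of the 7 P450 members and in 0 of the 3 other members, in 87.4% of the 119 annotated P450 genes tested and in 0.630% of the 16825 genes tested with a coding sequence. The 30 coding bases of each site follow, 5′ to 3′, from the RefSeq TAIR10.1 genome, with the codon of the heme-binding cysteine in capitals:
CYP79F1 (AT1G16410, chr1:5610897-5610926, plus strand, cysteine at residue 473): tttagcaccggtcgacgtggcTGCatcggt
CYP79F2 (AT1G16400, chr1:5607060-5607089, plus strand, residue 472): tttagcactggtagacgtggcTGCgtcggt
CYP79B2 (AT4G39950, chr4:18527066-18527095, plus strand, residue 477): ttcagtaccgggaaaagaggtTGTgcggct
CYP79B3 (AT2G22330, chr2:9490765-9490794, plus strand, residue 479): tttagtaccggaaagagaggaTGTgctgct
CYP83A1 (AT4G13770, chr4:7990859-7990888, minus strand, residue 442): ttcgggtcaggccggagaatgTGCccggga
CYP83B1 (AT4G31500, chr4:15273848-15273877, minus strand, residue 441): ttcgggtcgggccggagaatgTGCccggcc
CYP81F2 (AT5G57220, chr5:23189469-23189498, plus strand, residue 429): tttggtaacggacgaagaacgTGTcctggt

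Within each pair of close relatives the sites differed at few positions, counted from 1 at the 5′ end with the base of the first gene given first. CYP79F1 and CYP79F2 differed by C9T, C13A and A25G. CYP83A1 and CYP83B1 differed by A9G, G29C and A30C. CYP79B2 and CYP79B3 differed at 5 positions, C3T, G12A, A15G, T21A and G27T. A read that matches both genes of a pair cannot be placed. How far this touches each pair is given where the pairs are compared below.

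The P450 members also carried the N-terminal anchor in sequence. The highest mean Kyte-Doolittle hydropathy of any 19-residue window within the first 60 residues was between 2.07 and 2.51 in the 7 P450 members, above the limit of 1.6 commonly used for a membrane span. It was 1.43 in FMO GS-OX1, 1.03 in MAM1 and 0.632 in SUR1. Of all genes tested with a coding sequence, 17.7% passed this limit. The proteins were 491 to 543 residues long in the P450 members and 459 to 506 residues long in the other members.

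The members were then placed by their level in each library. Among the other members, MAM1 (chromosome 5, 7703041 to 7706973) had 106.5 RPM in ribo-seq (4095 reads) against 146.4 RPM in mRNA-seq (9805 reads). SUR1 (AT2G20610, chromosome 2, 8877887 to 8880440) had 24.2 RPM in ribo-seq against 37.0 RPM in mRNA-seq. FMO GS-OX1 (AT1G65860, chromosome 1, 24498954 to 24502776) had 2.65 RPM in ribo-seq (102 reads) against 6.41 RPM in mRNA-seq (429 reads). All 3 were lower in ribo-seq, as were most genes: 5.8% of all genes tested had the higher RPM in ribo-seq. MAM1 was the highest member in both libraries.

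Of the P450 members on the methionine branch, CYP79F1 had 8.32 RPM in ribo-seq against 19.5 RPM in mRNA-seq. Its tandem neighbor CYP79F2 had 1.59 RPM in ribo-seq (61 reads) against 4.24 RPM in mRNA-seq (284 reads). CYP83A1 had 23.3 RPM in ribo-seq against 63.5 RPM in mRNA-seq. All 3 were thus lower in ribo-seq, as were most genes tested. CYP83A1, the next enzyme of the branch, was above both CYP79F genes in each library.

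On the tryptophan branch, CYP79B2 had 9.0 RPM in ribo-seq (346 reads) against 12.6 RPM in mRNA-seq (844 reads). CYP79B3 had 6.27 RPM in ribo-seq (241 reads) against 27.3 RPM in mRNA-seq (1826 reads). CYP83B1 had 24 RPM in ribo-seq against 43.6 RPM in mRNA-seq. Here the order of both CYP79B genes, which catalyze the same reaction, was not the same in the 2 libraries. CYP81F2 was low in both, with 1.51 RPM in ribo-seq (58 reads) against 2.34 RPM in mRNA-seq (157 reads).

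Levels of different genes were compared per kb of coding sequence. In ribo-seq, MAM1 was highest at 70.0 RPM per kb (95% exact Poisson interval 67.9 to 72.2), followed by SUR1 at 17.5 (16.4 to 18.6), CYP83B1 at 16.0 (15.0 to 17.1) and CYP83A1 at 15.4 (14.5 to 16.5). The intervals of the last 3 genes overlapped, so their order was not resolved at this depth. CYP79B2 at 5.54 RPM per kb and CYP79F1 at 5.15 RPM per kb overlapped as well, above CYP79B3 at 3.84 (3.37 to 4.36) and FMO GS-OX1 at 1.92 (1.57 to 2.33). The lowest were CYP81F2 at 1.02 RPM per kb and CYP79F2 at 0.983 RPM per kb, again with overlapping intervals.

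In mRNA-seq the order per kb differed from that in ribo-seq. MAM1 was at 96.3 RPM per kb, followed by CYP83A1 at 42.1, CYP83B1 at 29.1, SUR1 at 26.7, CYP79B3 at 16.7, CYP79F1 at 12.1 and CYP79B2 at 7.75. The intervals of neighbors in this order did not overlap. CYP79B3 stood above CYP79F1 and CYP79B2 in mRNA-seq and below both in ribo-seq, and SUR1 stood below both CYP83 genes in mRNA-seq. FMO GS-OX1 at 4.64, CYP79F2 at 2.63 and CYP81F2 at 1.59 RPM per kb were the lowest.

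**Figure D1:**
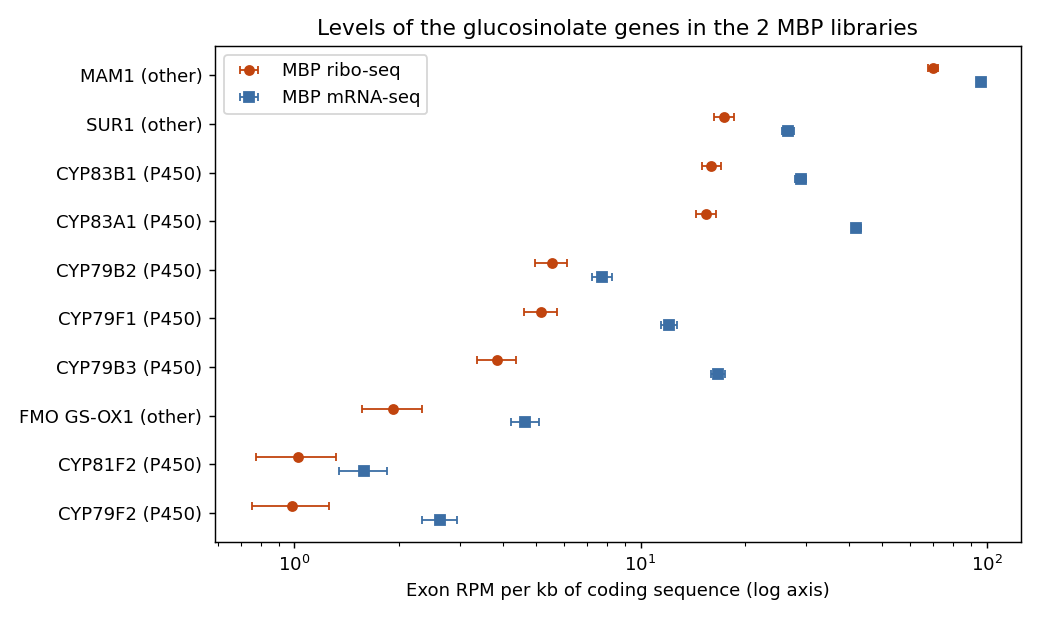
Exon RPM per kb of coding sequence (log axis) of the 10 members in MBP ribo-seq (circles) and MBP mRNA-seq (squares), 1 library each, with 95% exact Poisson intervals of the reads as bars, ordered from the top by the ribo-seq level. Every ribo-seq point lies left of its mRNA-seq point, where 5.8% of all genes tested had the higher RPM in ribo-seq. The gap is widest for CYP79B3, at 3.84 against 16.7 RPM per kb.

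To read ribosome-protected reads against transcript level, the log2 of (ribo-seq RPM + 1) over (mRNA-seq RPM + 1) was taken for each gene and is called the ratio. The added 1 understates the differences of low genes. The median ratio of all 16879 genes was -0.99, with quartiles of -1.53 and -0.52, so a gene with a ratio below 0 may still lie above most genes. A ratio was called high or low when it was more than 2-fold from this median. Of all genes tested, 5.59% were called above and 11.8% below, and of the 10 members 0 were called above and 0 below. None of the 10 had a higher RPM in ribo-seq than in mRNA-seq, against 5.8% of all genes tested. The members split evenly around the median, with 5 above and 5 below, where 50% of all genes lie above by construction.

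The lowest member was CYP79B3, with a ratio of -1.96, which is 0.97 below the median and at the 12.5 percentile of all genes. Without the added 1 its log2 ratio was -2.12 (95% exact interval -2.32 to -1.93). This placed it just inside the 2-fold limit. With no filter on low values, which brings the median of all genes to -0.59, it was called below. CYP83A1 was the next lowest, with a ratio of -1.41, or 0.42 below the median.

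The highest members were CYP81F2, CYP79B2 and MAM1, with ratios of -0.41, -0.44 and -0.46 and percentiles of 80.3, 78.7 and 78.2. The order among these 3 was not resolved: without the added 1, CYP81F2 had a log2 ratio of -0.64 with an interval of -1.10 to -0.19, and CYP79B2 had -0.49 with an interval of -0.67 to -0.30. MAM1, with the most reads, had -0.46 with an interval of -0.51 to -0.41. SUR1 followed with a ratio of -0.59 and CYP83B1 with -0.83. CYP79F2 and FMO GS-OX1 at -1.02 and CYP79F1 at -1.14 lay within 0.15 of the median of all genes.

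**Figure D2:**
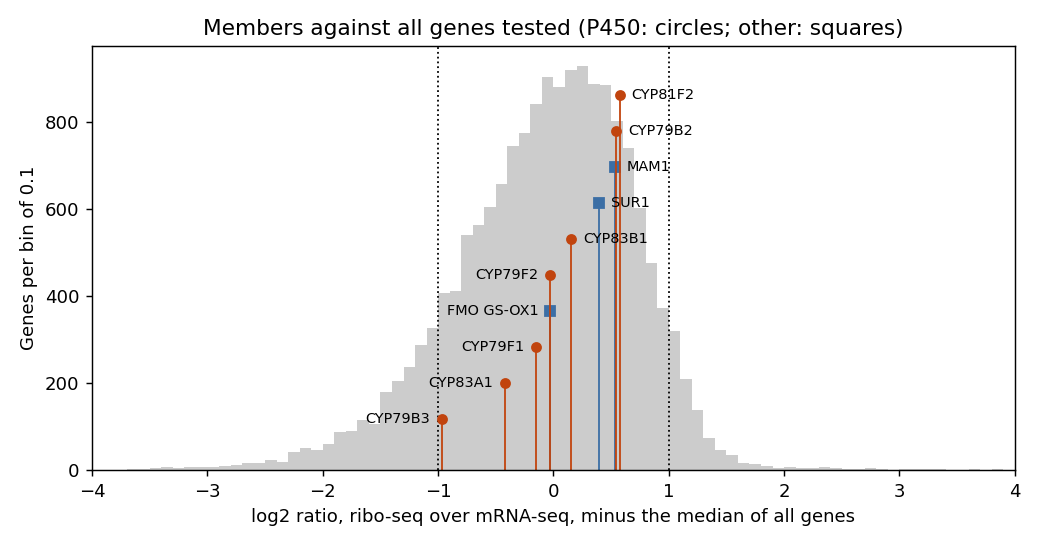
Histogram of the ratio minus the median over the 16879 genes tested, in bins of 0.1 on the log2 scale, with the 7 P450 members (circles) and the 3 other members (squares) marked at heights that serve only to separate the labels. Dotted lines mark 2-fold from the median, and all 10 members lie between them, from CYP79B3 at -0.97 to CYP81F2 at 0.57.

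To ask whether the genes for membrane-anchored enzymes differed from those for the other enzymes, both kinds of member were set side by side. The P450 members had a median ratio of -1.02 and a range of -1.96 to -0.41. The other members had a median of -0.59 and a range of -1.02 to -0.46. The medians differed by -0.43, while both ranges overlapped and that of the P450 members enclosed the other. Summed over genes, the P450 members had 74.0 RPM in ribo-seq against 173.0 RPM in mRNA-seq, and the other members had 133.4 RPM in ribo-seq against 189.9 RPM in mRNA-seq, most of it from MAM1.

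The spread among the P450 members was wider than the gap to the others. The 3 P450 members of the methionine branch lay between -1.41 and -1.02, all below the median of all genes. This side of the median was not firm: against genes of like length CYP79F1 was 0.01 and CYP79F2 0.12 above, and CYP79F2 was also above with a pseudocount of 5 (0.16) or with UTR values added (0.08). The 4 P450 members of the indole branch, CYP81F2 included, lay between -1.96 and -0.41, and 3 of them were above the median. CYP79B3 was the exception in this branch.

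The paralogs were therefore compared in pairs. CYP79B2 and CYP79B3 share 85.1% of their protein residues. CYP79B2 was 1.44-fold of CYP79B3 in ribo-seq, whereas CYP79B3 was 2.16-fold of CYP79B2 in mRNA-seq. Their ratios differed by 1.52, and by 1.64 without the added 1 (exact conditional 95% interval 1.36 to 1.91), which is beyond counting error. To see how far reads could match both genes, each window of 28 bases, near the length of a ribosome-protected fragment, was looked up in the genome. Of the 1599 windows in the coding sequence of CYP79B2, 5 occur elsewhere, all in CYP79B3.

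CYP83A1 and CYP83B1 share 61.5% of their protein residues and no window of 28 bases. They were near equal in ribo-seq, with CYP83A1 at 0.970-fold of CYP83B1, and CYP83A1 was 1.46-fold of CYP83B1 in mRNA-seq. Without the added 1 the log2 ratios differed by -0.59 (interval -0.74 to -0.44). The methionine-branch enzyme was thus the lower of the pair in ratio, beyond counting error.

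CYP79F1 and CYP79F2 lie on the same strand with 1183 bp between them and share 88.3% of their protein residues. CYP79F1 was 5.25-fold of CYP79F2 in ribo-seq and 4.60-fold in mRNA-seq. Without the added 1 the difference of log2 ratios was 0.19, with an interval of -0.26 to 0.65 that includes 0. Of the 1590 windows of CYP79F1, 179 (11.3%) also occur in CYP79F2, so part of the reads of either gene may belong to the other and both values are uncertain to that extent. Smaller overlaps existed for FMO GS-OX1, with 43 windows found elsewhere, most of them in FMO GS-OX2 and FMO GS-OX3, and for MAM1, with 8 in MAM3. CYP83A1, CYP83B1, CYP81F2 and SUR1 had 0 such windows, and no member overlapped another annotated gene.

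Coding length moved with the ratio over all genes. As a description across 16825 genes, which are no replicates of each other, the ratio had a Spearman's rho of -0.46 with coding length. The members are long, with 1380 to 1632 bp of coding sequence. Set against the median of genes within 10% of their own length, 8 of the 10 members lay above it, where 50% of all genes do. CYP79B2 was then 0.71 above, CYP81F2 0.69 above and MAM1 0.65 above, while CYP83A1 was 0.30 below and CYP79B3 0.81 below. On this scale 0 members were more than 2-fold above or below, against 3.13% and 9.44% of all genes. The medians of P450 and other members differed by -0.35, close to the value without length. The part of length in these values was not tested further.

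**Figure D3:**
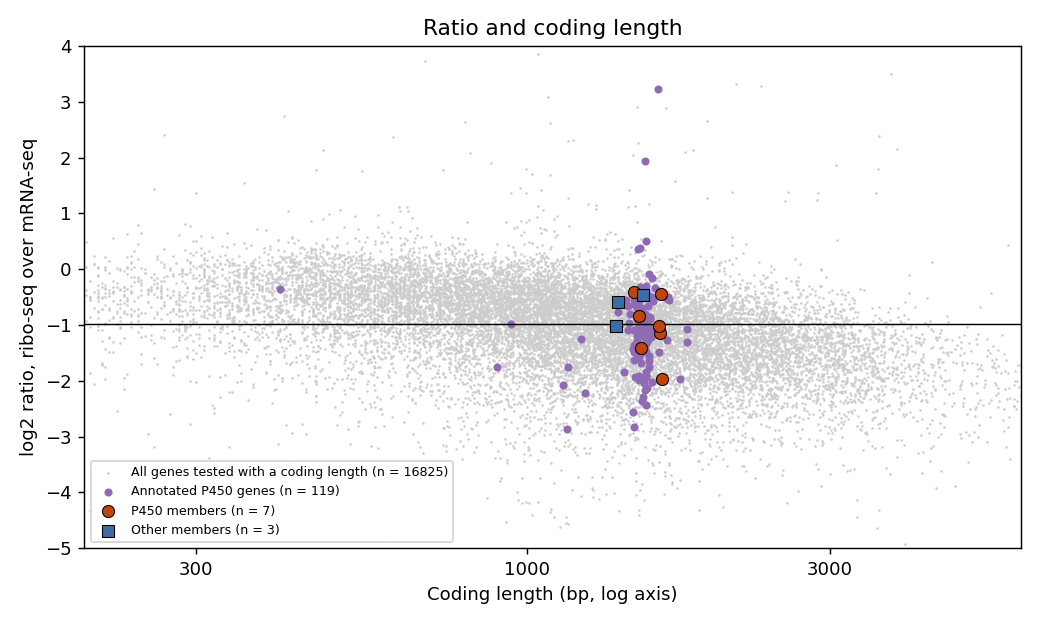
Ratio, ribo-seq over mRNA-seq on the log2 scale, against coding length (bp, log axis) for all genes tested with a coding length (gray), the 119 annotated P450 genes (purple, members included), the 7 P450 members (red circles) and the 3 other members (blue squares); genes beyond the axes are not drawn and the line marks the median of all genes, -0.99. The members sit at 1380 to 1632 bp, inside the cloud of P450 genes, whose ratios reach from -2.87 to 3.22.

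Next, the reads of each member were split by feature into 5′ UTR, exons and 3′ UTR. The exon values behave as coding sequence, since the mRNA-seq value of the 3′ UTR exceeded that of the exons in 523 of 25688 transcripts. Over all members, exons held 99.7% of the ribo-seq reads (exact 95% interval 99.6 to 99.8; 7975 of 7999) and 91.3% of the mRNA-seq reads (90.9 to 91.6). The 5′ UTR held 0.263% in ribo-seq (21 reads) and 1.64% in mRNA-seq (436 reads). The 3′ UTR held 0.0375% in ribo-seq (3 reads) and 7.11% in mRNA-seq (1893 reads). Ribosome-protected reads of these genes thus lay almost wholly in the coding exons.

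The 3′ UTR shares were also summed over P450 members and over other members. The ribo-seq 3′ UTR share was 0.0351% (interval 0.000887 to 0.195) in P450 members and 0.0389% (0.00471 to 0.140) in other members. The mRNA-seq 3′ UTR share was 8.76% (8.27 to 9.26) in P450 members and 5.57% (5.19 to 5.97) in other members. The share of the other members rests on MAM1, which gave 565 of the 767 3′ UTR reads of the other members and has the shortest 3′ UTR, 127 bp. By gene both kinds of member overlapped in mRNA-seq, with FMO GS-OX1 at 8.73% above CYP79F2 at 6.15%, CYP81F2 at 6.55% and CYP83A1 at 7.04%.

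CYP81F2 had no 5′ UTR row, and the tables list no feature at 0 in both libraries, so 9 members were in all 3 tables. The 3′ UTR share was lower in ribo-seq than in mRNA-seq in 9 of the 9, as in 99.6% of 14036 such genes. The 5′ UTR share was lower in 8 of the 9, against 89.2%. Both counts are near those of all genes. In the 3′ UTR, 7 of the 9 had 0 ribo-seq reads, against 70.1% of all genes, and the exceptions were SUR1 with 2 reads and CYP83B1 with 1 read. In the 5′ UTR, 6 of the 9 had 0 ribo-seq reads, against 27.5% of all genes.

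The exception in the 5′ UTR was FMO GS-OX1, where it held 3.77% of the ribo-seq reads (4 of 106, interval 1.04 to 9.38) and 2.08% of the mRNA-seq reads (10 of 481, interval 1.0 to 3.79). With overlapping intervals, this difference was not detectable at this depth. CYP79F1 had 6 ribo-seq reads there, or 1.84% (0.678 to 3.96), against 2.76% in mRNA-seq (1.99 to 3.73). MAM1 had 11, or 0.268% (0.134 to 0.479), against 2.12% in mRNA-seq (1.86 to 2.42). Among members with 0 ribo-seq reads in the 5′ UTR, depth set the limit. The exact interval of a count of 0 reaches a share of 0.398% in CYP83B1 and 5.87% in CYP79F2.

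**Figure D4:**
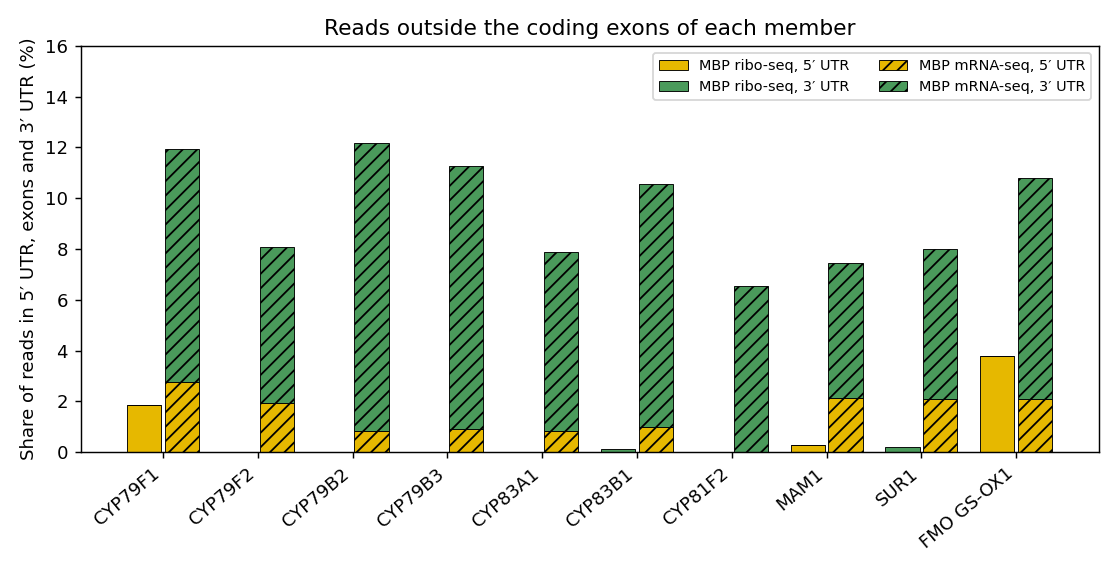
Share of the reads of each member that fell in the 5′ UTR (yellow) and 3′ UTR (green), stacked, in MBP ribo-seq (plain bars, left) and MBP mRNA-seq (hatched bars, right); the rest of each bar to 100% is exon reads. In ribo-seq only CYP79F1 and FMO GS-OX1 reach 1%, at 1.84% and 3.77% in the 5′ UTR, while in mRNA-seq the 3′ UTR holds 5.33% to 11.3% in every member.

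The members were then compared with other P450 genes. The annotation names 257 P450 genes, of which 252 had exon values and 119 passed the filter. Their median ratio was -1.09, or 0.10 below that of all genes, and 0.01 above that of genes of like length. Of the 119, 5 (4.2%) were called above and 12 (10.08%) below, close to the 5.59% and 11.8% of all genes. The class was set by annotation, and 107 of the 119 (89.9%) had a hydrophobic first segment. Not all of them need be ER-anchored, and their place in the cell was not tested. Genes with a hydrophobic first segment, P450 or not, had a median ratio of -1.06, against -0.97 for those without one (2974 and 13851 genes). The P450 members, with a median of -1.02, were thus near the middle of their class.

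The P450 genes called above and the lowest of those called below are named here after their values were seen, and CYP81F4 of the glucosinolate pathway was among those above. CYP78A8 had 160.8 RPM in ribo-seq against 16.3 RPM in mRNA-seq, and CYP703A2 had 23.8 RPM in ribo-seq against 5.44 RPM in mRNA-seq. Both lie in the first 154478 bp of chromosome 1, a stretch as long as the plastid genome, in which 17 of 36 genes tested (47.2%) were called above. Whether the reads in this stretch come from these genes was not tested, so the values of CYP78A8 and CYP703A2 are uncertain. Without both, 3 of 117 P450 genes (2.56%) were called above. No member lies there. CYP86A1 had 1.77 RPM in ribo-seq against 0.956 RPM in mRNA-seq, and CYP71A12 had 1.46 RPM in ribo-seq against 0.911 RPM in mRNA-seq. The genes called below included HPL1, a hydroperoxide lyase gene, with 0.494 RPM in ribo-seq against 9.92 RPM in mRNA-seq (ratio -2.87, the lowest). CYP88A3 (ratio -2.83) and KAO2 (ratio -2.56), of gibberellin synthesis, and CYP72A13 (ratio -2.44) followed. All 4 were below every member. Outside the members, the P450 genes with the highest ribo-seq RPM were CYP78A8, CYP97A3 of carotenoid synthesis (116.2 RPM in ribo-seq, 246.5 in mRNA-seq), CYP86A2 of cutin synthesis (65.8 in ribo-seq, 160.3 in mRNA-seq), AOS of jasmonate synthesis (61.3 in ribo-seq, 64.9 in mRNA-seq) and CPD of brassinosteroid synthesis (51.8 in ribo-seq, 189.4 in mRNA-seq). The ratio was -0.08 for AOS and -1.85 for CPD, farther apart than those of CYP79B2 and CYP79B3.

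The rest of the glucosinolate pathway gave 36 genes tested, of 40 with exon values and 41 listed; AOP2 was not analysed here. Of the 36, 7 were called above (19.4%, against 5.59% of all genes) and 3 below (8.33%, against 11.8%). Above the median lay 31 of them (86.1%), against 50% of all genes. The list had a median ratio of -0.64, or 0.34 above that of all genes, and 0.36 above that of genes of like length. On the length scale 4 of the 36 were more than 2-fold above, against 3.13% of all genes, since IPMI-SSU2, GSTF9 and GSTF10 fell inside the limit. On the same scale 3 (8.33%) were more than 2-fold below, near the 9.44% of all genes. The calls above were enzymes, and the calls below were 1 transporter and 2 transcription factors.

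Methionine chain elongation, the step of MAM1, held 8 other genes with a median ratio of -0.34. Of these, 2 were called above (25%, against 5.59% of all genes) and 1 below (12.5%, against 11.8%). MAM3, the relative of MAM1 that makes long chains, had 10.4 RPM in ribo-seq against 7.77 RPM in mRNA-seq, a ratio of 0.38. IPMI-SSU2, a small subunit of isopropylmalate isomerase, had 46.0 RPM in ribo-seq against 37.3 RPM in mRNA-seq, a ratio of 0.30. BAT5, which carries 2-oxo acids across the chloroplast envelope, had 1.53 RPM in ribo-seq against 9.44 RPM in mRNA-seq, a ratio of -2.04. It was the only gene of the group below the median of all genes.

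The soluble enzymes of the core structure, which include the steps on either side of SUR1, held 12 genes with a median ratio of -0.60. Of these, 4 were called above (33.3%, against 5.59% of all genes) and 0 below (against 11.8%). The glutathione transferase GSTU20 had 286.0 RPM in ribo-seq against 176.8 RPM in mRNA-seq, a ratio of 0.69 and the highest of the pathway list. GSTF9 had 344.1 RPM in ribo-seq against 283.1 RPM in mRNA-seq (ratio 0.28), and GSTF10 had 145.7 RPM in ribo-seq against 139.8 RPM in mRNA-seq (ratio 0.06). The gamma-glutamyl peptidase GGP1 had 49.5 RPM in ribo-seq against 38.2 RPM in mRNA-seq (ratio 0.36). The lowest was AT2G31790, a UDP-glycosyltransferase, at -1.14. These genes are short, with a median coding length of 857 bp. Against genes of like length 2 of the 12 were more than 2-fold above, where 3.13% of all genes were. Reads with several map positions were left out in the study's mRNA-seq processing in general, and whether this covered both MBP libraries is not stated. The values of close glutathione transferase copies are therefore uncertain.

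Side chain modification, the step of FMO GS-OX1, held 8 tested genes with a median ratio of -0.46 and 0 calls in either direction. Of all genes tested, 5.59% were called above and 11.8% below. All 8 were above the median of all genes, where 50% of all genes lie, from FMO GS-OX2 at -0.99 to FMO GS-OX4 at -0.07. The side of FMO GS-OX2 was not resolved, at the 50.0 percentile with 77 ribo-seq reads. Of the P450 genes related to CYP81F2, CYP81F4 was called above, with 7.73 RPM in ribo-seq against 5.73 RPM in mRNA-seq (ratio 0.37), and CYP81F1 was near the median at -0.96. CYP81F3 did not pass the filter. CYP81F4 lies within 2140 bp shared with AT4G37409 on the other strand, whose own exons had 0 RPM in ribo-seq against 0.0149 RPM in mRNA-seq.

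The MYB transcription factors that switch on the pathway had a median ratio of -2.03 over 4 tested genes. Of these, 2 were called below (50%, against 11.8% of all genes) and 0 above (against 5.59%). MYB28, the main regulator of the methionine branch, had 0.832 RPM in ribo-seq (32 reads) against 38.8 RPM in mRNA-seq (2596 reads), a ratio of -4.44 and a percentile of 0.0889. MYB34, of the indole branch, had 0.754 RPM in ribo-seq against 8.27 RPM in mRNA-seq, a ratio of -2.40. MYB51, also of the indole branch, was near the median of all genes at -0.97, and MYB29, of the methionine branch, was at -1.65. With the added 1, both lay within the range of the P450 members. Without it MYB29, with 13 ribo-seq reads, had a log2 ratio of -3.25 (interval -4.18 to -2.44), below CYP79B3 at -2.12. The MYB28 ratio is that of its second isoform, with 1101 bp of coding sequence and no 5′ UTR row. In the first isoform, with 864 bp, the 5′ UTR held 59 ribo-seq reads and the exons 23. In mRNA-seq its 5′ UTR held 1067 reads and its exons 2008. Exon reads of the second isoform were 32 and 2596, so the split between 5′ UTR and exons depends on the isoform taken. The glucosinolate transporters GTR1 and GTR2 had ratios of -0.83 and -0.91.

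P450 enzymes draw electrons from P450 reductases, which are ER-anchored too. ATR1 had 17.6 RPM in ribo-seq against 138.8 RPM in mRNA-seq, a ratio of -2.91, and was called below. ATR2 had 62.5 RPM in ribo-seq against 199.4 RPM in mRNA-seq, a ratio of -1.66. Both were thus below the median of all genes and within or below the range of the P450 members. ATR1 overlaps CER2 on the other strand by 96 bp.

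Phenylpropanoid synthesis, another pathway that joins ER P450s and soluble enzymes, was described in the same way. Its 4 P450 genes had a median ratio of -0.97, with FAH1 highest at -0.89 and C3H1 lowest at -2.03 and called below (13.5 RPM in ribo-seq, 58.4 RPM in mRNA-seq). This call was lost against genes of like length, where C3H1 was 0.92 below. Its 7 soluble enzymes had a median of -0.33, with CHI at 0.36 and CHS at 0.06 called above, 0 called below and PAL2 lowest at -0.92. The calls above were 28.6% of the 7, against 5.59% of all genes, of which 11.8% were called below. The medians of P450 and soluble enzymes thus lay in the same order as in the glucosinolate members. Against genes of like length the medians were 0.14 for the phenylpropanoid P450 genes and 0.65 for the soluble enzymes. They were 0.12 and 0.48 for the P450 and other glucosinolate members. This order did not hold throughout. The 2 tested side chain P450s of the glucosinolate list, CYP81F1 and CYP81F4, had a median ratio of -0.29. Chain elongation at -0.34, side chain modification at -0.46 and the core soluble enzymes at -0.60 were lower. The 119 annotated P450 genes were 0.01 above genes of like length.

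**Figure D5:**
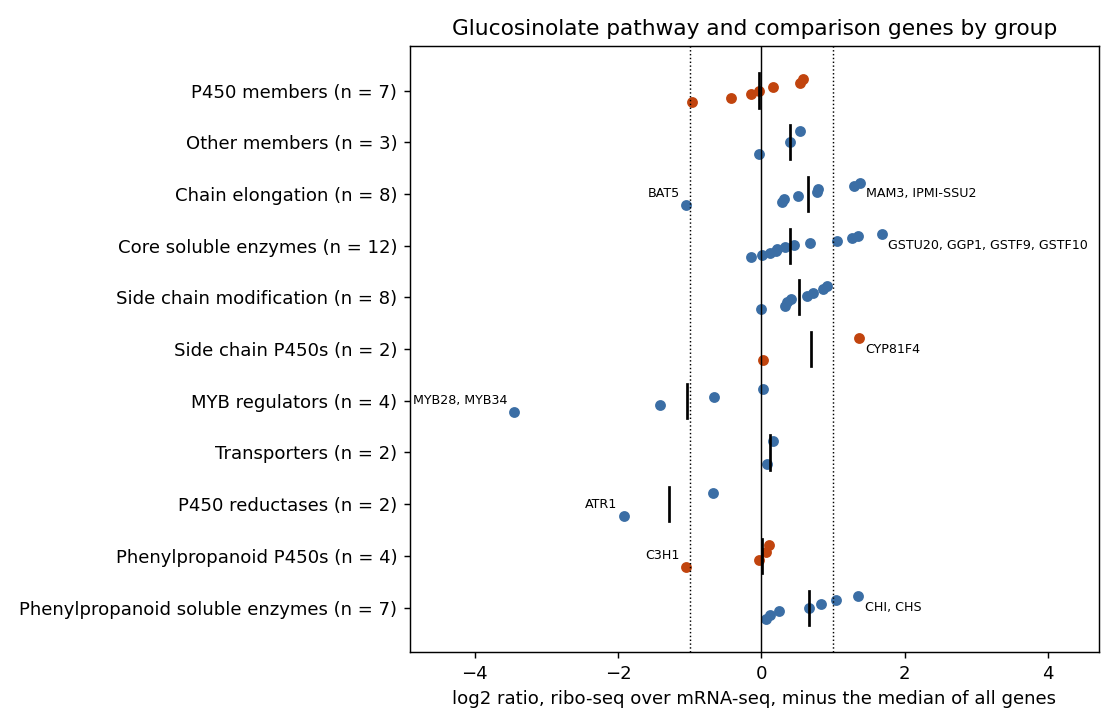
Ratio minus the median of all genes, log2 scale, for each gene of the members, the other glucosinolate groups and the phenylpropanoid genes (points; P450 genes red, others blue), with the group median as a black bar and dotted lines at 2-fold from the median. The named points are the genes past these lines: 10 of the glucosinolate list with MYB28 farthest out at -3.45, ATR1, C3H1, CHI and CHS, and none of the members.

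Marker genes of shoot, root and ER were read in both libraries. The shoot markers RBCS1A, CA1 and LHCB1.3 ranged from 267.3 to 9535 RPM in ribo-seq and from 1212 to 13066 RPM in mRNA-seq. Of the root markers, PYK10, the main protein of ER bodies, had 171.4 RPM in ribo-seq against 219.8 RPM in mRNA-seq, while COBL9 and EXPA7 of root hairs were under 1 RPM in both libraries. The ER chaperones BIP1 and BIP2 had 155.4 and 123.7 RPM in ribo-seq and 148.4 and 126.5 RPM in mRNA-seq. Shoot genes and PYK10 were thus far above the root hair genes, with 12 ribo-seq and 8 mRNA-seq reads for COBL9 and 13 and 2 for EXPA7. These markers do not settle which organs gave the reads, and the part of each organ in the members' values was not tested. Both libraries came from the MBP fraction, so BIP1 and BIP2 could not check the fraction.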

How the data were processed

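MBP ribo-seq and MBP mRNA-seq values were analysed, 1 library each. The authors aligned reads with TopHat2 2.0, took features from TAIR10 and assigned a read with bedtools 2.23.0 at an overlap of at least 80%. Handling of strand and multi-mapping reads in this step is not given in the sources used here. The study's methods describe polyA+ selection for RNA-seq, MBP RNA included, and leave out multi-mapping reads in mRNA-seq processing, while the ribo-seq protocol names neither. Thus the libraries may differ in more than ribosome protection. The values deposited by the authors are RPM per feature of each isoform. The mRNA-seq exon column sums to 1348201 and was treated as a signal by the deposited values, since a read counts for each isoform it overlaps. The deposited sum of both columns was not used. Nearly all values were whole multiples of 1 step (99.9% of all ribo-seq and 99.8% of all mRNA-seq values above 0 within 0.05 reads). The step was fitted on values up to 1000 reads and gave depths of 38438721 and 66958223 reads. A count of 0 allows 3 reads, which is 0.0780 RPM in ribo-seq against 0.0448 RPM in mRNA-seq. Intervals are exact (Clopper-Pearson or Poisson, 95%) and cover counting error only, as reads copied by PCR do not each stand for a molecule.

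For each gene the isoform highest in mean exon RPM was used. Ratios used a pseudocount of 1 and a mean exon RPM of at least 1. Symbols, coordinates and sequences came from RefSeq TAIR10.1, which matched 25042 of 25224 genes, the 10 members included. Members and gene lists were chosen with earlier results of these data known. The text names all members, the highest, lowest and called genes of each pathway and comparison list, and the 5 other P450 genes highest in ribo-seq. P450 genes named beyond this were chosen after their values were seen. Tested on simulated reads for 16879 genes, 200 of 200 genes changed 8-fold were called, as were 0 unchanged genes. Simulated reads varied by counting error only, around a level shared by both libraries. This checks the arithmetic of the calls and gives no error rate for real genes, which spread more widely. Alternatives covered pseudocount, filter, isoform, UTR values, length, scaling and fold limit, and, chosen after seeing the data, a binomial test on recovered reads. Scripts ran in Python 3.11.15 with scipy 1.17.1, numpy 2.4.6, biotite 1.4.0, pandas 2.3.3 and matplotlib 3.10.9.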

Additional observations from a re-analysis of the deposited data

How the results depend on the processing

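No paired analysis was possible because there was 1 library per assay. The median ratio of all genes, -0.99 as reported, was -1.14 and -0.65 with pseudocounts of 0.1 and 5, -1.01 under an exon filter of 10 RPM, -0.59 with no filter, -1.20 with UTR values added and -0.36 with each library rescaled to its exon sum, so all positions are relative to it. Single-member values moved by no more than the half-width of their counting interval in 55 of 77 cases and by more in 22. No member was called in the reported setting, so no call could be reversed. In 9 cases a value changed side of the median (CYP79F1, CYP79F2, CYP83B1 or FMO GS-OX1). With no filter, 1 member was called below (CYP79B3, 1.37 below the median), and the median of the members was 0.33 below that of all genes (-0.33, against 0.06 as reported). Of P450 genes, the 5 of 119 called above (4.2%) became 2 of 119 with a pseudocount of 5 (1.68%, against 0.995% of all genes), 2 of 49 under an exon filter of 10 RPM (4.08%, against 6.54%) and 2 of 119 at a 4-fold limit (1.68%, against 0.432%). The 12 of 119 called below (10.08%) became 5 of 49 under that filter (10.2%, against 13.3%), 28 of 252 with no filter (11.1%, against 15.4%) and 0 of 119 at a 4-fold limit (against 1.72%), so the shares moved less than the counts under both filters. The median of the class minus that of all genes, -0.10 as reported, was 0.17 with no filter, 0.018 with UTR values added and 0.011 against genes of like length. With 0.5 RPM added to each feature, the 5′ UTR share was lower in ribo-seq in 2 of 9 members in place of 8. The binomial test, which asks only about counting error, placed 5 members above the median gene (CYP79B2, CYP83B1, CYP81F2, MAM1 and SUR1) and 2 below (CYP79B3 and CYP83A1), beside 6672 genes above and 6709 below of 16879. The cause of these shifts was not tested beyond what each setting changes. The difference between P450 and other members kept its sign in every setting, from -0.61 to -0.22. Depth limits CYP81F2, CYP79F2 and FMO GS-OX1 most, with 58, 61 and 102 ribo-seq reads.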
